A study of Homo sapiens with 3 samples.

Results

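The tubulin isotypes are the separate genes that encode the alpha and beta chains of microtubules. The 10 genes described here were taken by symbol from the deposited table: the alpha genes TUBA1A, TUBA1B, TUBA1C and TUBA4A, and the beta genes TUBB, TUBB2A, TUBB2B, TUBB3, TUBB4B and TUBB6. They make up 10 of the 26485 gene entries, and another 15 entries carry the name of a tubulin. The measurements come from CAMA1, a line of human breast cancer cells that is positive for the estrogen receptor and carries an amplified FGFR1, used at a passage below 10. All cells were kept for 48 h in medium lacking estradiol, and poly-A RNA was sequenced in 3 libraries described as biological replicates. The series holds 1 group (labelled Cntrl) and no treated group, so isotypes are compared with one another and replicates with one another. Whether the cultures were grown separately is not given in the labels, so every p-value below rests on these 3 libraries alone. The spread between them may be technical. Each library is a bulk extract of 1 cell line, in which fewer expressing cells and less RNA per cell cannot be told apart.

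A microtubule is a hollow polymer of dimers, each made of an alpha and a beta tubulin chain, and it forms the mitotic spindle, the transport tracks of the cell and the core of cilia. Isotypes of a family are nearly alike over the folded body of the protein and differ mainly in an acidic tail at the C-terminal end, where glutamates receive added glutamate or glycine chains and where most alpha tubulins carry a final tyrosine that can be removed and put back. Tubulin also limits its own synthesis: when free dimers are in excess, TTC5 recognises the first residues of a tubulin chain on the ribosome and the messenger RNA is degraded. TUBB, TUBA1B and TUBB4B are made in most tissues, whereas TUBB3 is best known from neurons and from tumours that respond poorly to taxanes.

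The coding sequences show what the isotypes share and where they part, and they bear on how well reads can be assigned. They were read from the GENCODE release 29 transcripts on hg38. All of the sequences below run 5′ to 3′. The tails shown are those of 5 beta genes, where isotypes differ most: the last 75 coding bases with the stop codon, which lie in exon 4 of 4 in each gene. They lie at chr6:30724323-30724397 on the plus strand for TUBB, chr6:3153863-3153937 on the minus strand for TUBB2A, chr6:3224751-3224825 on the minus strand for TUBB2B, chr16:89935730-89935804 on the plus strand for TUBB3 and chr9:137243482-137243556 on the plus strand for TUBB4B. Capitals mark the glutamate codons GAA and GAG.
TUBB: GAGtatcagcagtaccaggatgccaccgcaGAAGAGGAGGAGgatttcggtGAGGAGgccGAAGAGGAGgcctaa
TUBB2A: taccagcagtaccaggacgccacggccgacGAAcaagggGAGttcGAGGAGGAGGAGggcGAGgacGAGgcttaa
TUBB2B: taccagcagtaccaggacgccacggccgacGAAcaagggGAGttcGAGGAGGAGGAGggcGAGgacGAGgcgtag
TUBB3: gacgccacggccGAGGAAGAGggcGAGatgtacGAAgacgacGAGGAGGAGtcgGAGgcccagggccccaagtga
TUBB4B: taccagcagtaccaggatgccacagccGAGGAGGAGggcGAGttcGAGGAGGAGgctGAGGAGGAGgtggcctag
Of the 24 sense codons in each tail, 10 were glutamate codons in TUBB and TUBB4B, the pair with the highest beta tubulin counts. The stretch is of fixed length, and in TUBB it opens with a glutamate codon upstream of where those of TUBB2A, TUBB2B and TUBB4B open. TUBB3 held 9 and is the beta gene that ends in a lysine codon. TUBB2A and TUBB2B held 8 each and part only in the last sense codon and the stop codon of this stretch, while TUBB6 held 7. The opening codons, which encode the residues that the autoregulatory factor recognises, differ by family at the fourth codon. That codon is in capitals in these first 12 coding bases of a gene from each group.
TUBA1B start: atgcgtgagTGC
TUBA4A start: atgcgtgaaTGC
TUBB start: atgagggaaATC
TUBB2A start: atgcgcgagATC
Every alpha gene of the 10 has TGC there and every beta gene ATC.

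The libraries were of similar depth, and the cells carried the markers of their label. Totals of 26473939, 26592335 and 30745412 counts stood in replicates 1, 2 and 3, of which the 10 isotypes held 0.273%, 0.285% and 0.248%. Levels are given as TPM, a level per transcript length that is scaled to the same sum in every library and was formed from the deposited counts and the deposited gene lengths. All 10 markers of luminal breast epithelium were detected, with a median of 645 TPM, led by KRT19 (3256 ± 605 TPM), KRT8 (2470 ± 140.0 TPM) and XBP1 (1524 ± 135 TPM), and they summed to 9231, 10206 and 11190 TPM in the 3 libraries. Of 5 lymphoid and myeloid markers, LYZ (6.48 ± 1.17 TPM) and CD68 (3.08 ± 0.470 TPM) were detected, and PTPRC was at 0.0227 TPM. Among 4 fibroblast genes COL3A1 was at 163 ± 23.4 TPM, COL1A1 at 10.5 ± 0.270 TPM and VIM at 3.27 ± 0.0515 TPM, and PDGFRB had 2, 6 and 0 counts. The part of other cells in the tubulin levels was not tested.

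All 10 isotypes were detected, meaning at least 10 counts in each library, against 54.9% of all entries. TUBB6 was the lowest of them in every library, and the highest was TUBA1B or TUBB, depending on the length used for TUBB.

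TUBA1B was the main alpha tubulin transcript. TUBA1B (chr12:49127784-49131521, minus strand), an alpha isotype made in most dividing cells, stood at 753, 780.3 and 601 TPM in replicates 1, 2 and 3 (711 ± 96.3 TPM, SD, n = 3), and ranked 151 among 19024 protein-coding entries. Replicate 3 was the lowest of the 3 and the other two lay close together. TUBA1C (chr12:49227926-49273338, plus strand), a neighbour in the same cluster, stood at 301, 315 and 265 TPM (294 ± 25.9 TPM), again lowest in replicate 3. TUBA1A (chr12:49184795-49189324, minus strand), the alpha isotype best known from developing neurons, stood at 137, 139.8 and 97.9 TPM (125 ± 23.5 TPM). Its replicate 3 was set apart from replicates 1 and 2 by more than those differed from each other, and no library of TUBA1A reached the lowest of TUBA1C. TUBA4A (chr2:219249711-219254608, minus strand), an isotype abundant in platelets and muscle, stood at 28.4, 27.7 and 26.8 TPM (27.6 ± 0.793 TPM). TUBA4A was the alpha member whose replicates lay closest together, and all 3 of its libraries were below every library of the other alpha genes.

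The alpha family was unequal in composition. TUBA1B held 61.4 ± 0.623% of the summed alpha TPM, TUBA1C 25.5 ± 1.11%, TUBA1A 10.7 ± 0.746% and TUBA4A 2.41 ± 0.264% (SD, n = 3). Within each library TUBA1B exceeded TUBA1C by 1.27 ± 0.08 on the log2 scale (2.41-fold) and TUBA1A by 2.52 ± 0.09 (5.73-fold). These ratios varied less between libraries than the TPM levels did. The 3 genes of chromosome 12 lie within a single cluster, and TUBA4A lies on chromosome 2.

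TUBB, the beta isotype of most dividing cells, had by far the highest counts of the 10, and its level per length depended on which length was used. It had 40443, 42112 and 42695 counts, more than the other 9 isotypes together in each library, and 1500.0 ± 100.4 CPM (counts scaled to the library total alone, SD, n = 3). The deposited length of TUBB was 24937 bases, 8.00 times the 3117 bases of its exons on chromosome 6 (chr6:30720201-30725426, plus strand), and the deposited entry lists the gene on 8 sequences, chromosome 6 and 7 alternate versions of that stretch. With the deposited length TUBB stood at 164, 169 and 146 TPM (160 ± 12.2 TPM, rank 1089), and with the chromosome 6 exon length at 1271, 1313 and 1131 TPM (1238 ± 95.5 TPM, rank 79). On either scale replicate 3 was the lowest, and on the second scale every library of TUBB was above every library of TUBA1B.

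The counts of TUBB were not all multiples of 8, the factor between its deposited and chromosome 6 lengths. The value was whole in 3 of 3 libraries and a multiple of 8 in 1 of them. The table holds 68 entries on 8 sequences of chromosome 6, with a median deposited length 8 times the chromosome 6 length. Of these, 32 were detected and 23 had whole counts in all 3 libraries, and 8 of their 69 values (11.6%) were multiples of 8. This check covers only reads counted exactly 8 times each, and other repeated counting was not tested. The other 9 isotypes lie on 1 sequence each and their deposited length equals their exon length, so they move only with the rescaling of the whole table, to 0.970 of the deposited-length TPM in replicates 1 and 2 and 0.969 in replicate 3. Beside each comparison with TUBB both values are therefore given.

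TUBB4B was the other abundant beta isotype. TUBB4B (chr9:137241259-137243707, plus strand), a widely expressed isotype that is also built into cilia, stood at 349.9, 368 and 393 TPM (370.3 ± 21.4 TPM), with replicate 3 the highest. It is the abundant isotype in which replicate 3 was not the lowest. With the deposited lengths TUBB4B exceeded TUBB by 1.22 ± 0.19 on the log2 scale, and with the chromosome 6 exon length TUBB exceeded TUBB4B by 1.78 ± 0.19 (3.44-fold). The sign was the same in 3 of 3 libraries on each scale. A two-sided exact permutation test by sign flips gave p = 0.25 on both, the smallest value that 3 libraries allow.

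The 2 class II genes and class III were lower. TUBB2A (chr6:3153666-3157549, minus strand) stood at 66.3, 76.4 and 69.3 TPM (70.6 ± 5.20 TPM), and its neighbour TUBB2B (chr6:3224261-3227734, minus strand) at 26.8, 29.6 and 27.2 TPM (27.9 ± 1.54 TPM). Both were highest in replicate 2 and lowest in replicate 1, and their ranges did not overlap. The ratio of TUBB2A to TUBB2B was 1.34 ± 0.03 on the log2 scale (2.53-fold). TUBB3 (chr16:89922009-89936097, plus strand) stood at 60.3, 67.5 and 61.6 TPM (63.1 ± 3.82 TPM), also highest in replicate 2. Its level was above the 8.09 TPM median of protein-coding entries. TUBB6 (chr18:12307669-12329825, plus strand), known from muscle and from mesenchymal cells, had 29, 34 and 31 counts, which is 0.885, 1.03 and 0.798 TPM (0.904 ± 0.117 TPM). At so few counts no difference between its replicates was detectable.

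Neuron markers were measured beside TUBB3, since class III tubulin is widely used to mark neurons. Of 12 neuron markers 4 were detected, and 7 never exceeded 3 counts. MAP2, a dendritic microtubule-binding protein, was the highest at 6.97 ± 1.11 TPM, followed by SNAP25 at 2.83 ± 0.0670 TPM and SYP at 2.02 ± 0.439 TPM. NEFL, NEFM, INA and GAP43 were at 0 counts in every library, a count that leaves room for up to 3. The 12 markers summed to 14.0, 13.1 and 10.8 TPM, below the level of TUBB3 alone in each library.

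**Figure D1:**
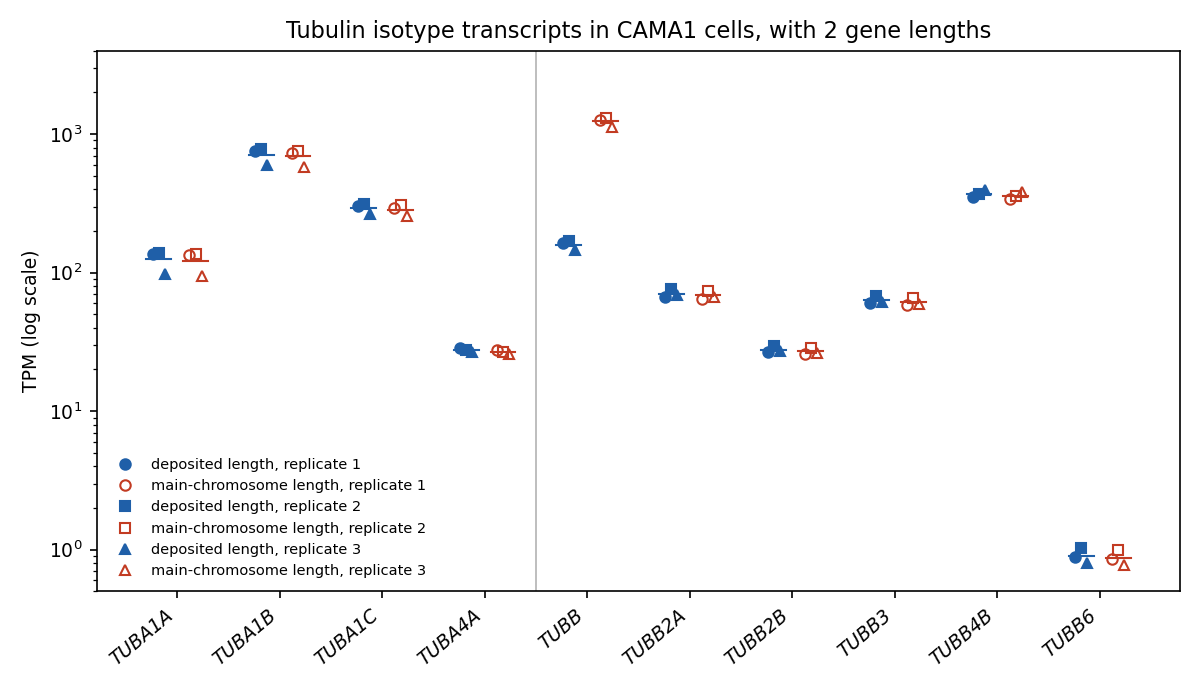
TPM of each tubulin isotype in the 3 libraries (log scale), with the deposited gene length (filled, blue) and with the exon length on the main chromosome (open, red); horizontal bars are means over 3 libraries and the grey line parts alpha from beta genes. TUBB moves from 160 to 1238 TPM between the lengths, while the other 9 isotypes keep their place.

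The shares within the beta family followed the choice of length. With the deposited lengths TUBB4B held 53.5 ± 2.47% of the summed beta TPM, TUBB 23.1 ± 1.90%, TUBB2A 10.2 ± 0.460%, TUBB3 9.11 ± 0.328%, TUBB2B 4.02 ± 0.132% and TUBB6 0.130 ± 0.0152%. With main-chromosome exon lengths TUBB held 70.5 ± 2.28% and TUBB4B 20.5 ± 2.02%, and TUBB2A, TUBB3, TUBB2B and TUBB6 held 3.90 ± 0.218%, 3.49 ± 0.144%, 1.54 ± 0.0559% and 0.0498 ± 0.00402%. In replicate 3 TUBB4B had its highest share and TUBB its lowest on both scales. By library the TUBB share on main-chromosome lengths was 72.2%, 71.4% and 67.9%, and that of TUBB4B was 19.3%, 19.4% and 22.9%.

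**Figure D2:**
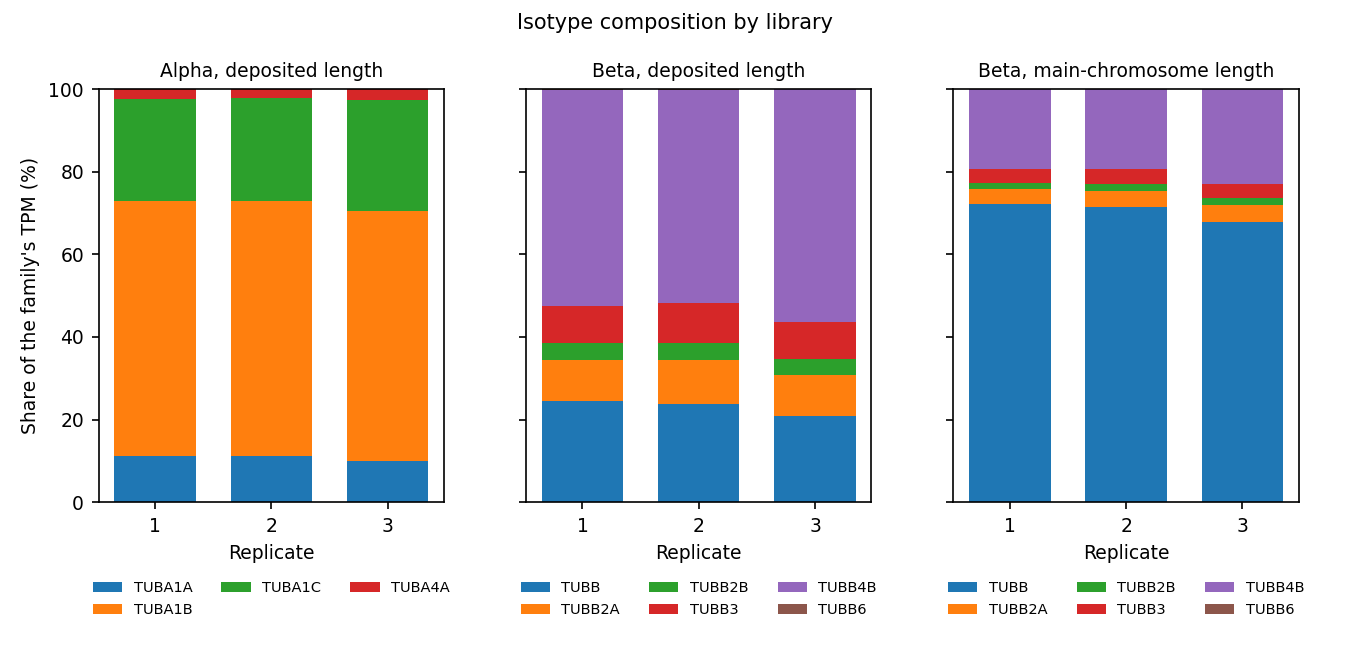
Share of each isotype in the summed TPM of its family (percent, stacked to 100) for replicates 1, 2 and 3: alpha genes, beta genes with the deposited length, and beta genes with the exon length on the main chromosome. TUBA1B makes up 61.4% of the alpha sum, TUBB rises from 23.1% to 70.5% of the beta sum between the lengths, and TUBB6 is too small to be seen.

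Alpha and beta chains enter the dimer in equal number, so the sums of the families were set side by side. With the deposited lengths the alpha genes summed to 1220, 1263 and 991 TPM and the beta genes to 668, 712 and 697 TPM, a log2 ratio of beta over alpha of -0.87, -0.83 and -0.51 (mean -0.73 ± 0.20). With main-chromosome lengths the sums were 1184, 1226 and 961 TPM for alpha and 1760.3, 1839.9 and 1665 TPM for beta, a log2 ratio of 0.57, 0.59 and 0.79 (mean 0.65 ± 0.12, 1.57-fold). The ratio was the highest in replicate 3 on either scale, where the alpha sum was lowest, and its sign turned with the length of TUBB in all 3 libraries. The exact permutation test by sign flips gave p = 0.25 for each, its smallest possible value. These are levels of messenger RNA, and protein was not measured.

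Over both families, the order with the deposited lengths was TUBA1B, TUBB4B, TUBA1C, TUBB, TUBA1A, TUBB2A, TUBB3, TUBB2B, TUBA4A and TUBB6. The order was taken from the means of these same 3 libraries, so the direction of each step was set by the values compared. Of the 9 pairs of neighbours in that order, 7 had ranges over the 3 libraries that did not overlap. The narrowest of these steps was TUBB4B over TUBA1C at 0.33 ± 0.20 on the log2 scale, and the widest was TUBA4A over TUBB6 at 4.94 ± 0.17 (30.7-fold). TUBB2A and TUBB3 overlapped in range, although TUBB2A was higher in 3 of 3 libraries by 0.16 ± 0.02. TUBB2B and TUBA4A were not separated at all, with a log2 ratio of 0.01 ± 0.09 and TUBB2B higher in 2 of 3 libraries (exact permutation test by sign flips, p = 0.75). The other 8 steps had p = 0.25 in the exact permutation test, or 0.281 after Benjamini-Hochberg adjustment over the 9 pairs, and this design can give no smaller raw p. With main-chromosome lengths TUBB came first, 0.85 ± 0.09 above TUBA1B (1.80-fold), TUBA1C then stood next to TUBA1A, 1.25 ± 0.16 above it, and the order of the other isotypes was the same.

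Replicates differed by more than counting error in most of the isotypes. For each gene the counts were tested for variation beyond Poisson sampling in edgeR (a chi-square test after TMM scaling, adjusted by Benjamini-Hochberg over the 14453 genes tested). At an adjusted p under 0.05, 7 of 10 isotypes varied, against 41.6% of all genes tested. Well-counted genes pass such a test more readily, and among genes with a mean of at least 10 CPM 7 of 9 isotypes varied against 52.7% of genes. Beyond the trended negative binomial dispersion, which allows for the usual spread between replicates, edgeR called 0 of 10 isotypes, against 1.21% of genes. At an unadjusted p under 0.05 that test held for 1 isotype of 10, TUBA1A (adjusted p = 0.214), against 5.91% of genes, and the other 9 had adjusted p-values of 0.999989.

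TUBA1A had the largest range of the 10 and was low in replicate 3. After TMM scaling it stood at 126, 130.0 and 93.6 CPM, a range of 0.47 on the log2 scale (1.39-fold), with an adjusted p of 2.78e-42 in the edgeR chi-square test beyond Poisson sampling. TUBA1B stood at 488, 513 and 407 CPM (range 0.34, adjusted p = 3.27e-82 in the same edgeR test) and TUBA1C at 237, 251 and 217 CPM (range 0.21, adjusted p = 6.92e-15). The 3 alpha genes of the chromosome 12 cluster shared the order of their libraries, with replicate 2 highest and replicate 3 lowest. TUBB had the same order at 1513, 1585 and 1404 CPM (range 0.17, adjusted p = 2.49e-67). Marker lists moved between the libraries too. The luminal sum ran the other way, at 9231, 10206 and 11190 TPM, with 7 of the 10 markers highest in replicate 3 after TMM scaling and 3 (EPCAM, CDH1 and TFF1) lowest there, TFF1 at 25.5, 27.3 and 12.6 CPM. The 4 fibroblast genes summed to 185, 196 and 151 TPM, in the order of TUBA1A, and nearly all of that was COL3A1 (348, 376 and 291 CPM). The 5 lymphoid and myeloid markers summed to 11.1, 8.69 and 9.02 TPM. The part of these lists in the differences between replicates was not tested.

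TUBB4B ran the other way, with 206, 220.2 and 241 CPM and replicate 3 highest (range 0.23, edgeR adjusted p = 1.03e-16). TUBB2A and TUBB3 passed more narrowly, with ranges of 0.22 and 0.18 and edgeR adjusted p-values of 0.00221 and 0.0180, and both were lowest in replicate 1. TUBB2B, TUBA4A and TUBB6 did not pass, with adjusted p-values of 0.263, 0.968 and 0.737. TUBA4A stood at 27.2, 27.0 and 26.8 CPM, the narrowest range of all 10 (0.02). Of the 10 isotypes 6 were lowest in replicate 3, as were 39.8% of all genes tested, and 8 were highest in replicate 2, as were 27.5% of genes. The median range was 0.22 for the isotypes, 0.19 for all genes tested and 0.15 for those of at least 10 CPM.

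Leaving out a library changed the calls. Without replicate 3, edgeR called 8.04% of genes and 6 isotypes, and TUBA1A was the 1 that no longer passed (adjusted p = 0.520). Without replicate 1 it called 32.5% of genes and 5 isotypes, and without replicate 2 it called 37.1% of genes and 5 isotypes. TUBB2A (adjusted p = 0.161 and 0.0713) and TUBB3 (0.207 and 0.196) were the isotypes lost in both of those fits. TUBA1B, TUBA1C, TUBB and TUBB4B passed in all 3.

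**Figure D3:**
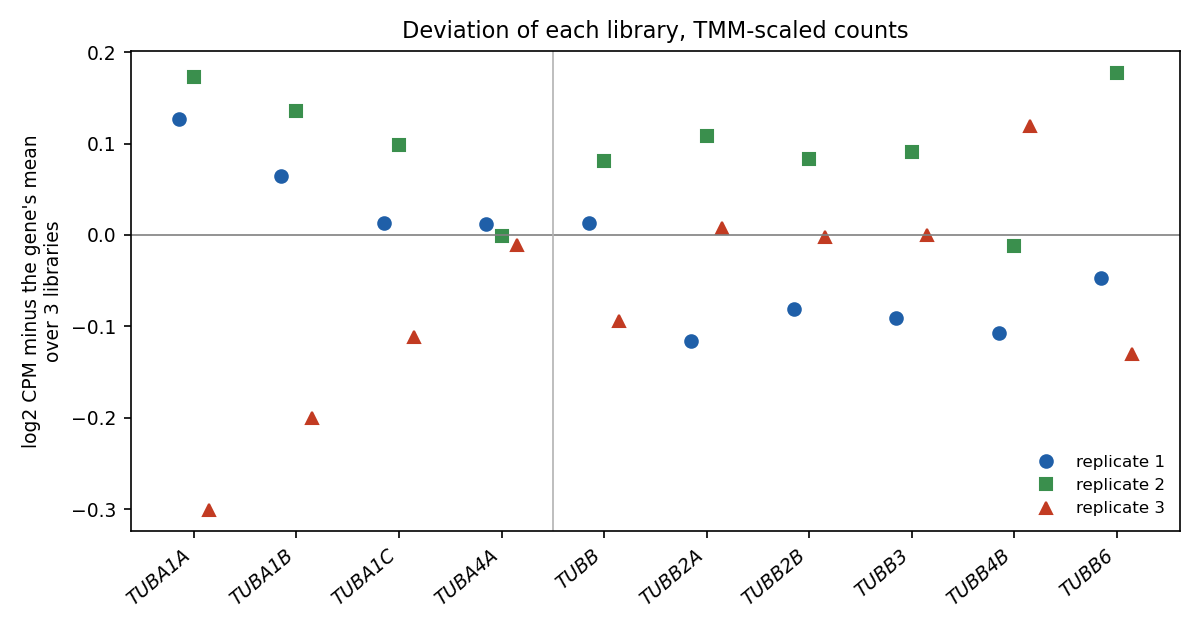
Deviation of each library from the gene's own mean over 3 libraries, in log2 CPM after TMM scaling, for replicates 1 (circles), 2 (squares) and 3 (triangles). Replicate 3 lies lowest for TUBA1A, TUBA1B, TUBA1C, TUBB and TUBB6 and highest for TUBB4B, and the 3 points of TUBA4A nearly coincide.

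The genes most like TUBA1A in this respect were sought among 9591 protein-coding genes with a mean of at least 10 CPM, by the Euclidean distance between the deviations of log2 CPM over the 3 libraries. The closest were ZNF136 (distance 0.000996), C9orf72 (0.00332) and ZNF140 (0.0110). ZNF136 stood at 17.7, 18.3 and 13.2 CPM, C9orf72 at 17.8, 18.4 and 13.3 CPM and ZNF140 at 39.5, 40.6 and 29.6 CPM. With 3 points such a likeness is a description only.

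How far the isotypes can be counted apart depends on the sequence they share. Over the coding sequence TUBA1A and TUBA1B were 97.2% identical, differing at 38 bases, with a longest identical run of 221 bases. TUBA1B and TUBA1C were 97.3% identical with a run of 326 bases, and TUBA1A and TUBA1C 96.3% with a run of 164 bases. TUBB2A and TUBB2B were the closest pair at 98.1%, with 25 differing bases and an identical run of 725 bases. TUBB was 81.7 to 84.9% identical to the other beta genes and shared no run beyond 35 bases with any of them. TUBA4A was 85.0 to 86.3% identical to the other alpha genes. Alpha and beta genes were 61.0 to 65.9% identical.

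Counted over the whole transcript, 65.5% of the 50-base stretches of TUBB2A and 52.2% of those of TUBB2B were also present in a transcript of another tubulin gene, among 161 transcripts of 58 alpha and beta tubulin genes and pseudogenes. The shares were 62.7% for TUBA1B, 41.7% for TUBA1A and 25.1% for TUBA1C. They were lower for TUBB (18.2%), TUBB4B (9.89%), TUBB3 (8.90%), TUBA4A (5.25%) and TUBB6 (0.993%). For stretches of 100 bases the shares fell to 56.4% for TUBB2A, 46.2% for TUBB2B, 37.2% for TUBA1B and 18.6% for TUBA1A, and to 5.10% for TUBB. The read length was not given in the sources used here, so it cannot be set against these lengths.

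**Figure D4:**
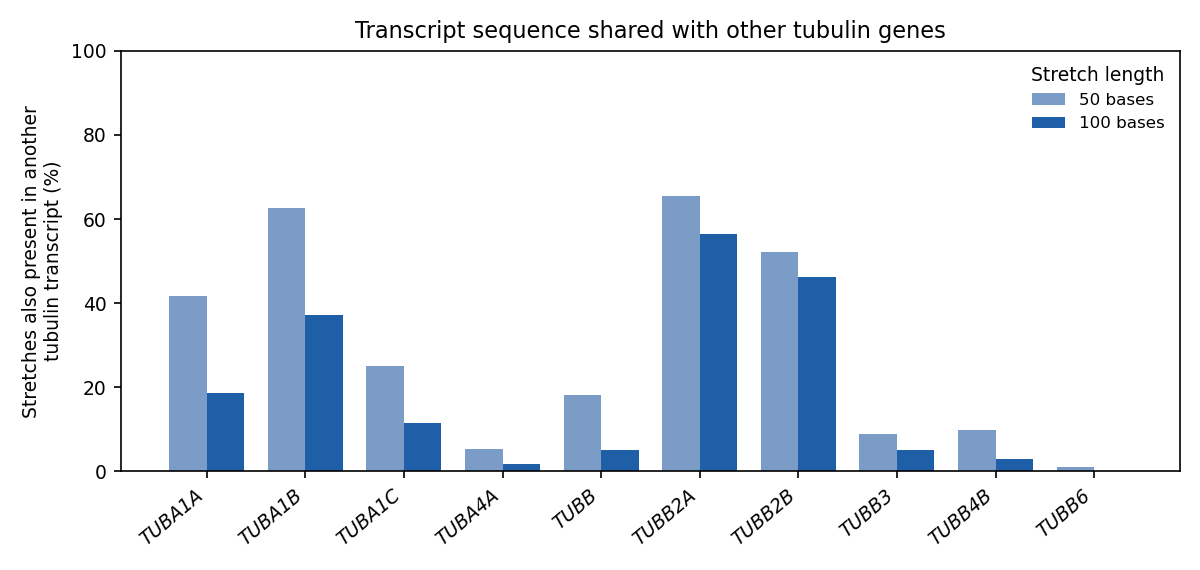
Percent of all 50-base (light) and 100-base (dark) stretches of each isotype's transcript that are also present in a transcript of another alpha or beta tubulin gene. TUBB2A, TUBB2B and TUBA1B share the most, and TUBB6 the least.

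Fractional counts can arise where a read is divided between entries, and whether they did so here was not tested. TUBA4A, TUBB and TUBB6 had whole counts in 3 of 3 libraries, and the other 7 isotypes had fractional counts in all 3. TUBB2A and TUBB2B had 1150.53 and 535.53 counts in replicate 1 and 1426.03 and 644.03 in replicate 3, with the same fraction in each pair (0.53 and 0.03). In replicate 2 they had 1336.42 and 596.92 counts, with fractions of 0.42 and 0.92. The counts of TUBA1A, TUBA1B, TUBA1C, TUBB2A, TUBB2B, TUBB3 and TUBB4B are uncertain to the extent that reads in identical stretches were divided between entries. TUBB3 shared identical coding runs of 185 bases with TUBB2A and TUBB2B, and TUBB4B runs of 143 bases with the same genes. The sum of TUBB2A and TUBB2B was 1686.06, 1933.34 and 2070.06 counts, which is not whole either.

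Overlap with genes of the opposite strand touched 3 isotypes, and the strand setting of the counting was not given. STK16 covers 627 bases of the TUBA4A exons (24.2%) and stood at 34.9 ± 1.16 TPM, above TUBA4A itself. FAM166A covers 125 bases of TUBB4B (7.86%) at 1.88 ± 0.471 TPM. AFG3L2 covers 638 bases of TUBB6 (19.3%) and stood at 62.6 ± 2.15 TPM with 2065, 1990 and 2289 counts, far above the 29 to 34 counts of TUBB6. Their part in the counts of the isotypes was not tested.

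Among the other 15 entries named as tubulins, 12 were detected and 4 reached 10 TPM, and their median was 1.18 TPM. TUBG1 and TUBG2, the gamma tubulins that template microtubule growth at centrosomes, stood at 99.1 ± 4.83 and 55.5 ± 2.19 TPM. TUBG1 was higher in 3 of 3 libraries, by 0.84 ± 0.11 on the log2 scale. TUBE1 and TUBD1, the epsilon and delta tubulins of centrioles, stood at 11.5 ± 0.30 and 11.3 ± 0.453 TPM. The remaining alpha and beta genes were each below every well-expressed isotype. TUBB8, known from oocytes, stood at 4.17 ± 0.164 TPM, TUBB1, the platelet beta tubulin, at 2.84 ± 0.140 TPM and TUBB4A, a brain isotype, at 1.68 ± 0.356 TPM. TUBA3D and TUBA4B were at 1.18 ± 0.187 and 1.18 ± 0.212 TPM, TUBAL3 at 0.920 ± 0.216 TPM, TUBA8 at 0.739 ± 0.191 TPM and the pseudogene TUBBP5 at 0.695 ± 0.0887 TPM. TUBA3C had at most 3 counts in each library and was not detected. In the edgeR chi-square test 2 of 12 tested entries varied, against 41.6% of all genes tested. They were TUBG2, the entry of largest range among those of at least 10 CPM (edgeR adjusted p = 0.0442), and TUBG1 (edgeR adjusted p = 0.04999, at the threshold).

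The genes that fold, modify and bind tubulin were mostly detected. With the other tubulins they form 8 lists of 108 entries, of which 95 were tested and 34 (35.8%) varied beyond Poisson sampling, against 41.6% of all genes. Beyond the negative binomial dispersion 1 of the 95 varied, VASH2, against 1.21% of all genes tested. Without replicate 3 the Poisson count was 6, against 8.04% of all genes tested in that fit. It was 27 without replicate 1 (against 32.5% of genes) and 27 without replicate 2 (against 37.1%). The 8 genes of largest range in their lists at a mean of at least 10 CPM, TUBG2 among them, all passed the Poisson test with 3 libraries. They were picked by their range over these same libraries, so these passes, and the losses with a library left out, depend on that choice. In edgeR without replicate 3 none of these 8 passed (adjusted p from 0.171 to 0.988), and 6 of them passed without replicate 1 and 6 without replicate 2.

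Folding of new tubulin runs through prefoldin and the ring-shaped chaperonin and then through the cofactors TBCA to TBCE. The chaperonin and prefoldin list had the highest median of the 8, at 226 TPM, and all 15 members were detected. PFDN5 stood at 701 ± 30.8 TPM, CCT3 at 631 ± 30.1 TPM, CCT7 at 342 ± 5.18 TPM and CCT6A at 337 ± 22.9 TPM, close to the level of TUBB4B. Of the 15, all of at least 10 CPM, 9 varied beyond Poisson sampling, against 52.7% of genes at that level, and CCT6B had the largest range (13.3, 12.7 and 9.93 CPM, edgeR adjusted p = 0.00163). All 7 folding cofactors were detected with a median of 31.3 TPM, led by TBCB (131 ± 5.51 TPM), which acts on alpha tubulin, and TBCA (105.1 ± 9.38 TPM), which acts on beta tubulin. TBCC and TBCE, which complete the dimer, stood at 76.9 ± 5.05 and 31.3 ± 1.48 TPM. TBCD, which holds beta tubulin with them and is named after its values were seen, stood at 25.1 TPM, and at 36.1 TPM with its main-chromosome length, above TBCE. Of these 7, 2 varied, against 41.6% of all genes tested. TBCEL had the largest range of the cofactors with at least 10 CPM (21.0, 19.1 and 16.7 CPM, edgeR adjusted p = 0.00303).

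The 3 genes of tubulin autoregulation were all detected. TTC5, which reads the nascent chain, stood at 23.7 ± 0.624 TPM and did not vary beyond Poisson sampling (edgeR adjusted p = 0.708). CNOT11, a subunit of the deadenylase that is brought in, stood at 75.4 ± 2.25 TPM. SCAPER, the adaptor between them, stood at 8.56 ± 0.638 TPM and had 15.6, 15.2 and 18.0 CPM (edgeR adjusted p = 0.0400), highest in replicate 3.

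Of 26 enzymes that modify tubulin 21 were detected and 2 stayed at 3 counts or fewer throughout, with a median of 6.21 TPM. With the deposited lengths SIRT2, a deacetylase, was the highest at 62.9 ± 2.85 TPM, followed by TTLL12, a member of the ligase family, at 56.2 ± 0.971 TPM. AGBL5 and AGTPBP1, carboxypeptidases that shorten glutamate chains, stood at 41.8 ± 0.671 and 34.5 ± 1.96 TPM. In the edgeR chi-square test 5 of 21 tested enzymes varied, against 41.6% of all genes tested. VASH2, which with SVBP removes the final tyrosine of alpha tubulin, had 17.5, 15.1 and 8.39 CPM and was lowest in replicate 3. The negative binomial test called 1.21% of all genes tested. VASH2 is the single gene of the 8 lists past it (edgeR adjusted p = 0.0197, and 3.57e-20 beyond Poisson sampling). That negative binomial call was not reached with any library left out (edgeR adjusted p = 0.248, 0.109 and 0.999 without replicates 1, 2 and 3). Other genes of the tyrosine cycle, named after their values were seen, were the ligase TTL at 28.3 ± 0.583 TPM, VASH1 at 1.29 ± 0.0641 TPM, SVBP at 9.97 ± 1.74 TPM and the detyrosinase KIAA0895L at 26.1 ± 0.776 TPM. The acetylase ATAT1, also named afterwards, stood at 10.3 ± 0.576 TPM with its deposited length of 20433 bases and at 70.1 ± 3.92 TPM with the 2919 bases of its main-chromosome exons, where it was above SIRT2 (61.0 ± 2.73 TPM on that scale).

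All 9 genes of microtubule nucleation were detected with a median of 51.5 TPM. MZT2A (115 ± 8.78 TPM), MZT2B (108 ± 7.16 TPM) and MZT1 (57.1 ± 0.889 TPM), small subunits of the gamma-tubulin ring, were followed by TUBGCP2 (54.6 ± 2.06 TPM). Of the 9, all of at least 10 CPM, 3 varied beyond Poisson sampling, against 52.7% of genes at that level. TUBGCP6 had the largest range, with 86.9, 87.1 and 107 CPM (edgeR adjusted p = 4.85e-18). Its replicate 3 was the highest, opposite in direction to TUBA1A.

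Proteins that bind microtubules or free dimers had a median of 22.5 TPM over 22 genes, 19 of them detected. MAPRE1, the plus-end binding protein EB1, stood at 201 ± 11.8 TPM, and STMN1, which sequesters dimers, at 129 ± 11.1 TPM. MAP4, the main structural binding protein outside neurons, stood at 61.6 ± 1.45 TPM and STMN3 at 51.6 ± 4.44 TPM. In this list 8 of 19 tested genes varied beyond Poisson sampling, against 41.6% of all genes tested. MAPRE3 had the largest range of the listed genes with at least 10 CPM (16.5, 17.5 and 22 CPM, edgeR adjusted p = 9.78e-06).

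Severing and depolymerising proteins had a median of 12.1 TPM over 11 genes, 9 of them detected. The depolymerising kinesin KIF2A stood at 34.0 ± 1.24 TPM, the severing enzyme spastin (SPAST) at 19.95 ± 0.347 TPM and the katanin subunit KATNA1 at 15.7 ± 0.267 TPM. Of 9 tested genes 4 varied beyond Poisson sampling, against 41.6% of all genes tested.

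**Figure D5:**
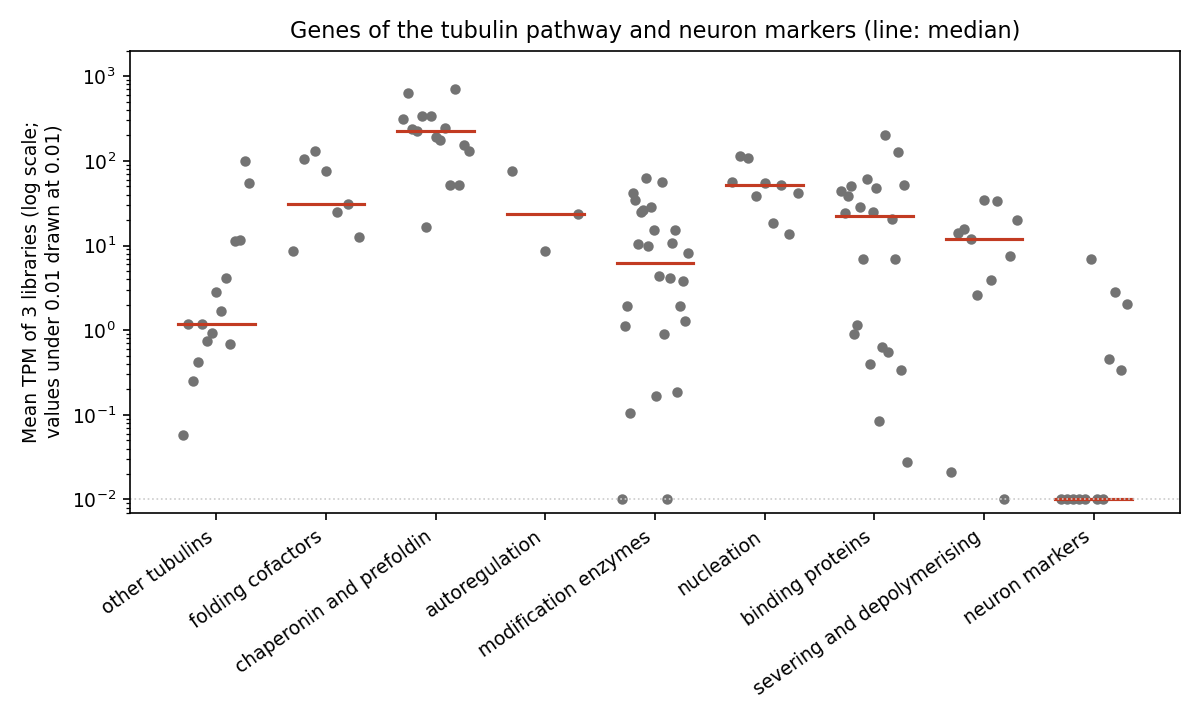
Mean TPM over 3 libraries (log scale, deposited lengths) of each gene in 8 lists of the tubulin pathway and in the neuron marker list; bars are medians and values under 0.01 TPM are drawn at 0.01. The chaperonin and prefoldin list has the highest median (226 TPM), and most neuron markers lie at the bottom of the axis.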

How the data were processed

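Poly-A RNA of 3 CAMA1 libraries was prepared with a stranded Illumina mRNA kit and sequenced on an Illumina NextSeq, per the labels' protocols. Each entry holds expected counts, which the authors deposited with a gene length: between 82.9 and 83.3% of non-zero values were whole within 1e-08. Per the submitters' processing notes, the tools were featureCounts, Subread and TopHat and the build was hg38. Versions, and how strand and reads with several matches were handled, are not given in the sources used here.

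TPM was computed from the deposited counts and lengths, and again from exon lengths on the main chromosome, formed from the deposited exon coordinates. GENCODE release 29 was used for the sequences alone. Counts were rounded to whole numbers for edgeR 4.0.16 (R 4.3.3), with the edgeR low-count filter, TMM factors of 1.01, 1.00 and 0.990, an intercept-only design and Benjamini-Hochberg adjustment over 14453 genes at 0.05. No contrast exists, so a chi-square test against Poisson sampling, or against the trended negative binomial dispersion, was used. The test against Poisson sampling was tested on simulated Poisson counts, and the negative binomial test was not. Ratios within a library were tested by exact two-sided permutation of signs. Precision is the SD over 3 libraries, and intervals for counting error were not added.

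The named genes are the 10 isotypes, all other detected tubulins, the 4 highest and the most varying (mean of at least 10 CPM) member of each of 8 lists, the 3 genes most like the isotype of largest range, and the leading markers; exceptions are said where they stand. A gene that this rule takes, and some sequences, are not reported here. Members and lists were chosen with earlier results of these data known. Alternatives were CPM, main-chromosome lengths, all tubulin rows in the denominator, 1 TPM added, detection at 1 or 20 counts or a mean of 1 TPM, DESeq2 1.42.0 size factors, library totals, no filter, and each replicate left out.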

Additional observations from a re-analysis of the deposited data

How the results depend on the processing

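With main-chromosome lengths 9 results moved and 4 reversed, and without division by length 22 moved and 6 reversed. The 22 include isotype levels in CPM set against levels in TPM, which are different units. With main-chromosome lengths the TUBB share was 70.5%, the TUBB4B share 20.5% and the log2 ratio of beta over alpha 0.65; the log2 ratios were -2.12 for TUBA1C over TUBB, -1.78 for TUBB4B over TUBB and -0.85 for TUBA1B over TUBB, all reversed. The deposited TUBB length, a sum over 8 sequences, sets these. Without division by length (CPM), the shares were 55.3% for TUBA1B, 81.5% for TUBB and 12.1% for TUBB4B, and the log2 ratios were -0.078 for TUBB4B over TUBA1C, -2.68 for TUBA1C over TUBB, -0.0326 for TUBB2A over TUBB3, -0.35 for TUBB2B over TUBA4A, -2.75 for TUBB4B over TUBB and -1.68 for TUBA1B over TUBB. With each replicate left out, TUBB2B over TUBA4A ranged from -0.032 (without replicate 2) to 0.0573 (without replicate 1). With the negative binomial dispersion 0 isotypes and 1 other pathway gene varied, against 1.21% of all genes tested. With each replicate left out the isotype count ranged from 5 to 6 and the pathway count from 6 (without replicate 3) to 27. The share of all genes called ranged from 8.04% (without replicate 3) to 37.1% (without replicate 2). The cause was not tested. DESeq2 size factors, library totals and no filter called 7 isotypes each, and 34 or 35 pathway genes. Of all genes tested in those fits they called 41.7%, 42.0% and 28.3%. The leave-outs and scalings of the pathway count were chosen after seeing the data. All 10 isotypes passed detection at 1 or 20 counts, and 9, without TUBB6, at a mean of 1 TPM. No paired analysis was possible because the series holds 1 group. Depth limits TUBB6 most.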
